A study of Homo sapiens with 20 samples.

Results

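The 9 protein-coding genes of the HOXC cluster on chromosome 12 were followed through their contacts in Poised Enhancer Capture Hi-C. A contact was taken as a HOXC contact when both of its ends lay on chromosome 12 and its bait or its other end overlapped the body of HOXC4, HOXC5, HOXC6, HOXC8, HOXC9, HOXC10, HOXC11, HOXC12 or HOXC13 widened by 1 kb. This gave 703 of the 182303 contacts listed within chromosomes, and of 766138 contacts in all. The HOXC gene lay at the bait in 466 of them, at the other end in 322 and at both in 85. The rule uses gene names and positions, and the genes were chosen with earlier results of these data known.

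Poised Enhancer Capture Hi-C enriches Hi-C ligation products that contain one of 28903 captured restriction fragments, the baits, which were designed on poised enhancers. The values were CHiCAGO interaction scores, in which a higher score marks a pair of fragments joined more often than its distance and background predict, and scores of at least 5 counted as calls. The study made 20 libraries of 10 conditions, 2 per condition. The deposited table held 1 pooled score per contact and condition, so no spread between replicates could be given and no difference between conditions could be tested.

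H9 cells, a primed embryonic stem cell line, were grown without feeders in mTeSR-E8 medium. Definitive endoderm (DE) was made from HNES1 cells at day 14 of the transition by 1 day of Activin A, CHIR99021, FGF2, PI-103, BMP4 and heparin and 2 days of Activin A, PI-103, FGF2, LDN193189 and heparin. Neuroectoderm (NE) was made from the same day 14 cells over 10 days with A8301 and LDN193189, and was sorted for cells with CD56 and without EpCAM. HNES1 is an embryonic stem cell line that is kept in the naive state, here in medium with PD0325901, LIF, Gö6983 and XAV939 (day 0), and it was moved to N2B27 medium with XAV939 to become primed. Cells were taken at days 1, 3, 5, 7 and 10 and, once primed, at day 14. All the transition and differentiation samples came from this 1 line, naive cells were maintained on mouse feeder cells, and H9 differed from HNES1 in line and culture together. The table held contacts only, so the cell types could not be checked against expressed markers.

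HOX genes encode homeodomain transcription factors that give cells their position along the body axis. Their order along a cluster matches the order of their domains in the embryo, with HOXC4 at the anterior end and HOXC13 at the posterior end of this cluster. In pluripotent cells the HOX clusters are silent and covered by Polycomb proteins, which compact them and hold them in contact with other Polycomb targets. The cluster also holds the long noncoding RNA gene HOTAIR and the microRNA genes MIR196A2 and MIR615, and miR-196a is known to target HOX messenger RNAs.

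On GRCh38 the cluster spans 117 kb (chromosome 12, 53938831 to 54056030), with HOXC13 at the low and HOXC4 at the high coordinate. The annotated bodies of HOXC4, HOXC5 and HOXC6 share their start at 54016888 and end at 54056030, 54035361 and 54030823. Every contact of HOXC6 was therefore also a contact of HOXC5 and HOXC4, and counts of these 3 genes are nested.

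Capture baits are fragments of the enzyme DpnII, which cuts at GATC, and the sequences below show where such cuts fall relative to the genes. The promoter window shared by HOXC4 and HOXC5 (RefSeq, GRCh38.p14, chr12:54016638-54016937, plus strand) has its only GATC, in capitals, at base 156, which is the first base of the bait at 54016793 to 54017745. GATC, which reads the same on both strands, occurs in 41.7% of 35116 such promoter windows of 300 bases.
HOXC4 promoter: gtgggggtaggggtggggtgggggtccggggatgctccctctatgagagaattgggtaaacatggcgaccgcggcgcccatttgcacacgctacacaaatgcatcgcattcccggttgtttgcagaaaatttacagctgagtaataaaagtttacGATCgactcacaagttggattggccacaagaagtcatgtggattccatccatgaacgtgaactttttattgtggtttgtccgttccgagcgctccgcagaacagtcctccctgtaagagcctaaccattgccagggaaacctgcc
The promoter window of the long noncoding RNA gene FLJ12825 (chr12:54058004-54058303, plus strand) holds no GATC. It lies whole in the other-end fragment at 54054590 to 54059686, which also covers the end of HOXC4. At 5097 bp this other end is longer than any member bait (162 to 2899 bp), and whether it joins several DpnII fragments is not given. That fragment made the most often called contact of a HOXC gene with a bait outside the cluster.
FLJ12825 promoter: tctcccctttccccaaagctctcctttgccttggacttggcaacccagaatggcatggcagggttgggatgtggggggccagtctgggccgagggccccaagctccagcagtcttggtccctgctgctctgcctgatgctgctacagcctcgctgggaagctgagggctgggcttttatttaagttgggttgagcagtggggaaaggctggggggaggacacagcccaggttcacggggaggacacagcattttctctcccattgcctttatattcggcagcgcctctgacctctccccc
The mature microRNAs of the cluster are given with their seeds, bases 2 to 8, in capitals, and no seed is shared between them. The GAUC of miR-615-5p, at base 19, marks the start of the bait at 54033985 to 54034383 inside HOXC5 and HOXC4, so a capture fragment begins within this microRNA.
hsa-miR-196a-5p: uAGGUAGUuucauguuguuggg
hsa-miR-615-5p: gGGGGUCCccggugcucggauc
hsa-miR-615-3p: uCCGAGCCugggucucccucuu

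HOXC contacts were fewest in naive cells and more numerous in all later states, and they were most numerous in DE and NE, where contacts of all genes were more numerous too. H9 had 161 called HOXC contacts, DE 174 and NE 176. Naive cells had 81, and the counts at days 1, 3, 5, 7, 10 and 14 were 107, 110, 128, 93, 103 and 129. The course was uneven, since days 7 and 10 lay below days 3, 5 and 14. Exact 95% Poisson intervals, which cover counting error only, ran for H9 over 137 to 188, for DE over 149 to 202, for NE over 151 to 204, for naive cells over 64.3 to 101 and for day 14 over 108 to 153. The intervals of day 14 and naive cells did not overlap, and those of H9, DE and NE overlapped that of day 14. The intervals of days 1 (87.7 to 129), 3 (90.4 to 133), 7 (75.1 to 114) and 10 (84.1 to 125) overlapped that of naive cells. That of day 5 (107 to 152) did not.

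These counts have to be read against how many contacts each condition called. Of the 703 HOXC contacts H9 called 22.9%, DE 24.8% and NE 25.0%, where the shares over all contacts within chromosomes were 13.0%, 16.2% and 17.9%. In naive cells 11.5% were called against 10.0% of all contacts, and day 1 had 15.2% against 10.1%, day 3 15.6% against 12.4% and day 5 18.2% against 11.7%. Day 7 had 13.2% against 10.2%, day 10 had 14.7% against 10.3%, and day 14 had 18.3% against 11.2%. The naive share of HOXC contacts thus lay close to that of all contacts. In percentage points the widest gaps were in H9, DE, NE and day 14 cells. H9, DE and NE also had the highest shares over all contacts, which widens such gaps. Taken as a ratio of the HOXC share to that of all contacts, NE lay below days 1 and 5.

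Expressed as a share of all calls within chromosomes, HOXC contacts made up 0.677% for H9 (95% Wilson interval 0.581 to 0.790), 0.589% for DE (0.508 to 0.682) and 0.539% for NE (0.465 to 0.624). The share was 0.443% in naive cells (0.357 to 0.551) and 0.629% at day 14 (0.530 to 0.747). The intervals of naive cells and day 14 thus overlapped as shares, although those of their counts did not. On this scale DE and NE lay below day 14, with overlapping intervals, but the order depended on the scaling. On quantile-normalised scores the share was 0.689% in DE and 0.634% in NE, against 0.634% at day 14, and with equal numbers of calls it was 0.679% and 0.657%, against 0.640%. All calls within chromosomes were 1.44 times as many in DE and 1.59 times as many in NE as at day 14, while HOXC calls were 1.35 and 1.36 times as many.

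**Figure D1:**
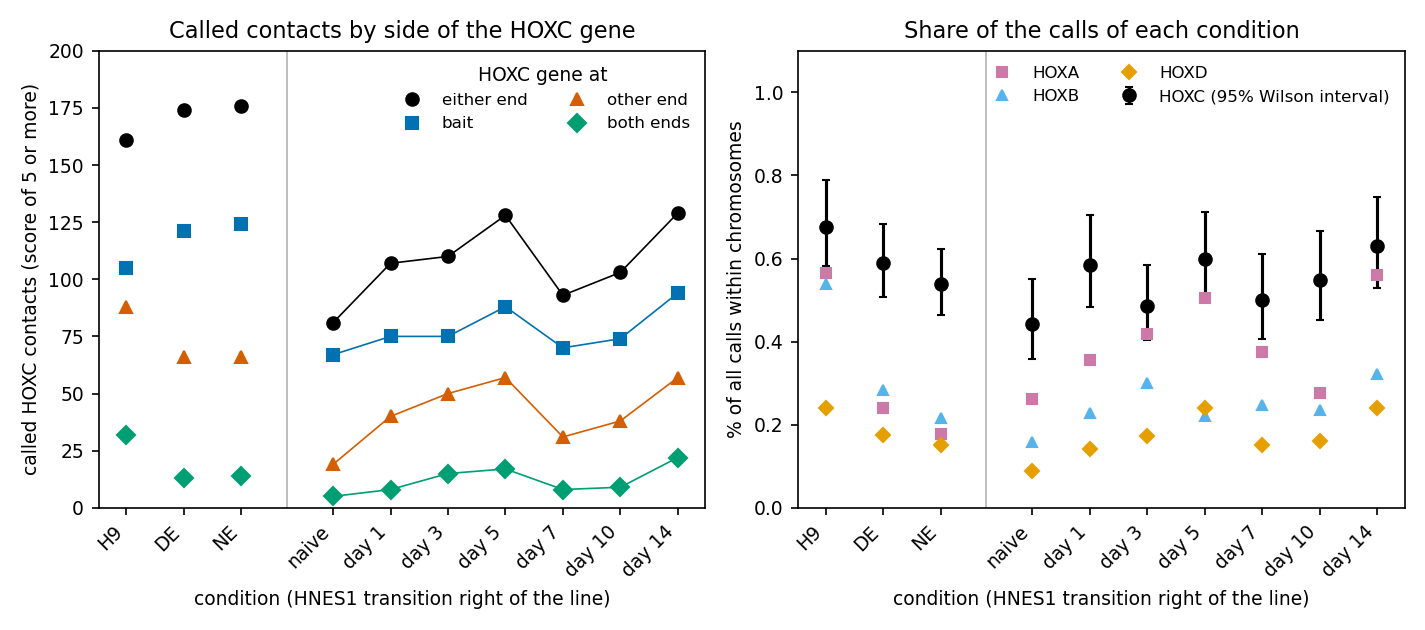
Left, called HOXC contacts (score of 5 or more) in each condition, by the end at which the HOXC gene lay; right, HOXC contacts as a percentage of all calls within chromosomes with 95% Wilson intervals, beside the 3 other HOX clusters without intervals. HOXC calls numbered 81 in naive cells and 129 at day 14, and the share was 0.589% in DE and 0.539% in NE, against 0.629% at day 14, an order that turned on scores scaled to equal numbers of calls (0.679% and 0.657%, against 0.640%).

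The side of the contact made a difference to the size of the change at a score of 5. With the HOXC gene at the bait there were 105 calls in H9, 121 in DE and 124 in NE, and 67, 75, 75, 88, 70, 74 and 94 along the transition in the order of the days. With the gene at the other end there were 88 in H9, 66 in DE and 66 in NE, and 19, 40, 50, 57, 31, 38 and 57 along the transition. Day 14 thus had 1.40 times the naive count on the bait side and 3.00 times on the other-end side. With calls at 3 or above these ratios were 1.43 and 1.87. With calls at 10 or above the order turned, with 9 against 3 calls on the bait side and 1 against 1 on the other-end side. At a score of 5, contacts with a HOXC gene at both ends numbered 32 in H9, 13 in DE and 14 in NE, and 5, 8, 15, 17, 8, 9 and 22 along the transition.

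Among the posterior genes, HOXC13, which is needed for hair and nails, had 15 called contacts in H9, 12 in DE and 15 in NE. It had 12, 10, 10, 9, 7, 13 and 19 from the naive state to day 14, and with HOXC13 at the other end 16 of the 19 day 14 calls were made, against 4 in naive cells. HOXC12 had 6, 3 and 9 calls in H9, DE and NE and between 1 and 9 along the transition, which is too few to order the conditions. HOXC11, a gene of the hindlimb and lower trunk, had 27 calls in H9, 31 in DE and 19 in NE. Along the transition it had 8, 24, 19, 18, 7, 7 and 13, so its highest count was at day 1 and most of it, 19 calls, came from its baits. HOXC10, a gene of the lumbar region, had 18, 12 and 14 calls in H9, DE and NE, and 8, 13, 13, 11, 8, 8 and 7 along the transition. It was the only member with fewer calls at day 14 than in naive cells, by 1 call.

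HOXC9 and HOXC8 act in the thoracic and brachial part of the trunk and spinal cord. HOXC9 had 6 calls in H9, 2 in DE and 7 in NE, and 2, 1, 3, 7, 3, 6 and 4 along the transition. HOXC8 had 10, 12 and 12 in H9, DE and NE, and 3, 7, 9, 8, 5, 6 and 7 along the transition. Both genes had 1 bait each, and as other ends neither was in any called contact in naive cells.

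At the anterior end, HOXC6, HOXC5 and HOXC4 held most HOXC contacts, in part because the annotated body of HOXC4 covers 39143 bp and 16 of the 28 member baits. HOXC4 had 108 calls in H9, 117 in DE and 112 in NE, and 52, 60, 73, 82, 67, 69 and 93 along the transition. Within these, HOXC5 had 60, 62 and 68 in H9, DE and NE and 32, 34, 48, 48, 42, 43 and 61 along the transition. HOXC6 had 51, 57 and 56 in H9, DE and NE and 27, 28, 38, 42, 32, 39 and 53 along the transition. As the other end, HOXC4 was in 43 calls in H9, 40 in DE and 32 in NE, and in 7, 16, 26, 32, 18, 19 and 27 along the transition. HOXC6 was the other end of 7 calls at day 14 and of 0 in naive cells.

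Split into segments that do not overlap by annotation, the stretch of HOXC4 beyond HOXC5 had 56 calls in H9, 60 in DE and 54 in NE, and 41 at day 14 against 23 in naive cells. The HOXC6 segment, which holds the shared start, had 39, 45 and 45 calls in H9, DE and NE, and 47 at day 14 against 23 in naive cells. HOXC5 beyond HOXC6 had 15, 15 and 18, and 14 at day 14 against 7 in naive cells. All 3 segments thus had more calls at day 14 than in naive cells. H9, DE and NE exceeded day 14 in the stretch of HOXC4 beyond HOXC5, and by less in HOXC5 beyond HOXC6. In the HOXC6 segment they all lay below day 14.

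**Figure D2:**
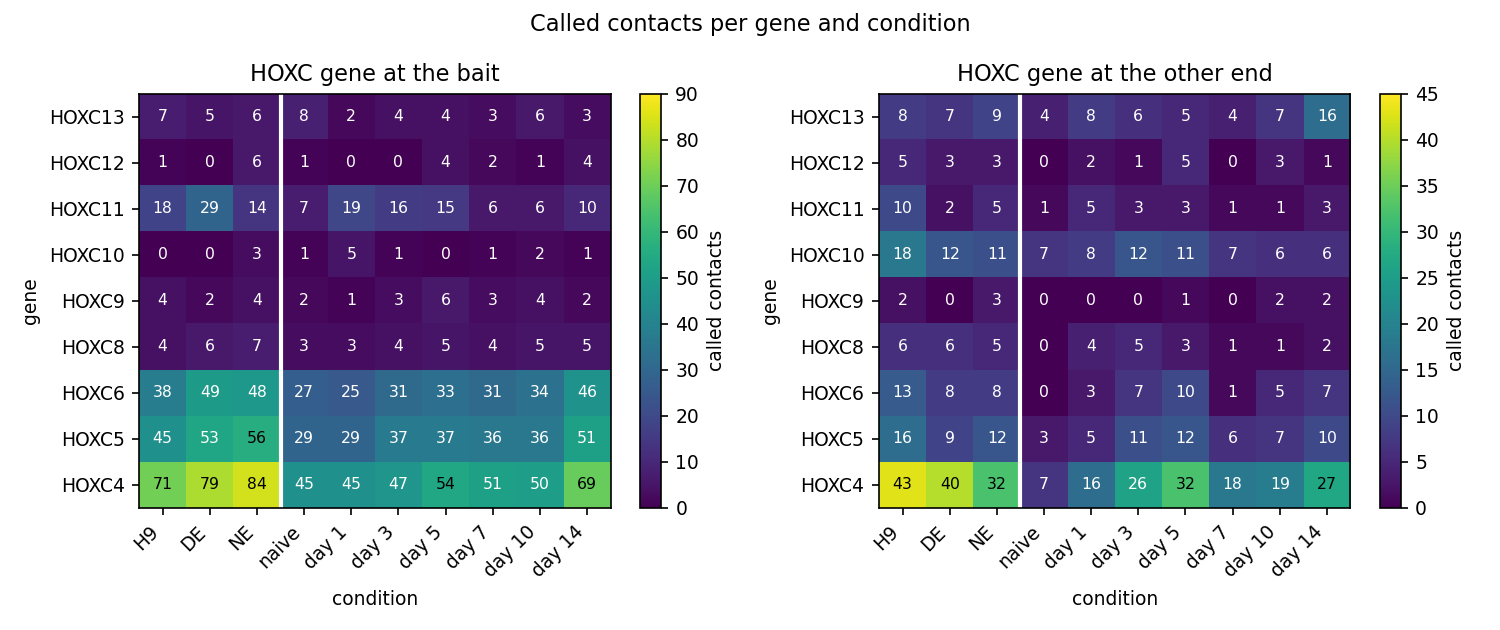
Called contacts of each HOXC gene (rows, posterior at the top) in each condition (columns), with the gene at the bait on the left and at the other end on the right; the 2 colour scales differ. HOXC4, HOXC5 and HOXC6 overlap and share contacts, and HOXC13 at the other end has 16 calls at day 14 against 4 in naive cells.

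The clearest pattern lay in where the opposite end of the contact fell. The region was divided after the values were seen, by annotated limits, into the side beyond HOXC13, the cluster itself, the 132 kb between HOXC4 and the far end of SMUG1, the 42.0 kb between SMUG1 and CBX5, and CBX5 and beyond, by the midpoint of the opposite end. SMUG1 encodes a uracil DNA glycosylase and CBX5 the heterochromatin protein HP1 alpha. All opposite ends lay within 522 kb of the cluster.

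Contacts inside the cluster, with both ends between HOXC13 and HOXC4, were many in the primed states and few in naive, DE and NE cells. There were 45 called in H9, 17 in DE and 16 in NE. Along the transition the counts were 5, 14, 21, 30, 11, 13 and 38 from the naive state to day 14. The Poisson interval of H9 was 32.8 to 60.2, that of DE 9.90 to 27.2, that of NE 9.15 to 26.0, that of naive cells 1.62 to 11.7 and that of day 14 26.9 to 52.2. Those of H9 and day 14 overlapped each other, and that of day 14 overlapped the one of DE at its edge but not those of naive cells and NE. Almost all these scores lay under 10, with 2 calls inside the cluster at that threshold in H9, 1 in NE and 0 in DE, day 14 and naive cells.

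Contacts inside the cluster made up 29.5% of HOXC calls at day 14 and 6.17% in naive cells, and 28.0% in H9, 9.77% in DE and 9.09% in NE. Of the 122 such contacts listed, 36.9% were called in H9, 13.9% in DE and 13.1% in NE, against 31.1% at day 14 and 4.10% in naive cells. Each of the 122 was listed because it reached a score of 5 in at least 1 condition, so states with more calls brought more of them in. The part of this in these shares and in the mean score was not tested. The mean score over the 122 contacts was 3.91 in H9, 2.73 in DE and 2.74 in NE, and 1.70, 2.38, 2.98, 3.15, 2.61, 2.26 and 3.59 along the transition. Over all contacts within chromosomes the mean score was 1.82 in H9, 2.10 in DE, 2.23 in NE, 1.53 in naive cells and 1.66 at day 14.

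Short contacts in general did not have this course. Contacts within chromosomes that were no longer than the longest inside the cluster (112 kb) had 4674 calls in H9, 6320 in DE and 6610 in NE, and 3370 in naive cells and 4365 at day 14. Those of chromosome 12 without HOXC contacts had 316, 533 and 548 calls in H9, DE and NE, and 307 and 420 in naive cells and at day 14. DE and NE thus had more short calls than day 14 overall and fewer inside the HOXC cluster.

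Part of the contacts inside the cluster recurred between states. Of the 38 called at day 14, H9 shared 10 (26.3%), DE 7 (18.4%) and NE 9 (23.7%), while of all day 14 calls within chromosomes H9 shared 8.60%, DE 10.0% and NE 11.2%. Sharing was not particular to the inside of the cluster. Of all HOXC calls at day 14, H9 shared 25.6%, DE 25.6% and NE 33.3%, and between SMUG1 and CBX5 39.0%, 31.7% and 46.3%. Of the 5 called inside the cluster in naive cells, 3 were also called at day 14, and 35 of the day 14 calls there were not called in naive cells. Of the pairs with a HOXC gene at both ends, 2 were called in 7 conditions, the most for such a pair. The first joined the bait at 54028739 to 54029645, in HOXC4, HOXC5 and HOXC6, to the HOXC10 fragment at 53986411 to 53991439. It scored 10.6 in H9, 3.04 in DE and 7.08 in NE, and 5.47, 4.12, 6.58, 8.36, 3.78, 6.00 and 8.69 along the transition. The second joined the HOXC4 bait at 54049237 to 54052135 to the HOXC4 fragment at 54041085 to 54046082, 7.10 kb away, and scored 9.49 in H9, 5.02 in DE and 7.55 in NE, and 4.70, 5.07, 3.56, 5.88, 5.57, 4.07 and 5.86 along the transition. Both were thus called in H9, NE and day 14 cells, and in DE the second but not the first. The bait at the far end of HOXC11 (53975896 to 53978215) and a fragment within HOXC4 (54041085 to 54046082), 66.5 kb apart, scored 6.89 in H9, 7.63 in DE and 4.96 in NE, and 8.06 at day 14 against 3.56 in naive cells.

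A fragment in HOTAIR and a fragment at HOXC13 were picked out after their values were seen. The HOTAIR fragment (53966551 to 53971703) was called from 8 member baits in H9, 1 in DE and 2 in NE, and from 1, 3, 2, 4, 2, 3 and 9 along the transition. The HOXC13 fragment (53946250 to 53950569), taken as other end from any bait, was called 0 times in H9, 3 in DE and 6 in NE, and 10 times at day 14 against 3 in naive cells. The HOTAIR fragment was thus reached from 8 and 9 member baits in the primed states H9 and day 14. The HOXC13 fragment had 10 calls from any bait at day 14 and 0 in H9, and 4 and 0 from member baits. Another fragment of HOXC13 (53940097 to 53944605) went the other way, with 4 calls from any bait at day 14 and 7 in H9.

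**Figure D3:**
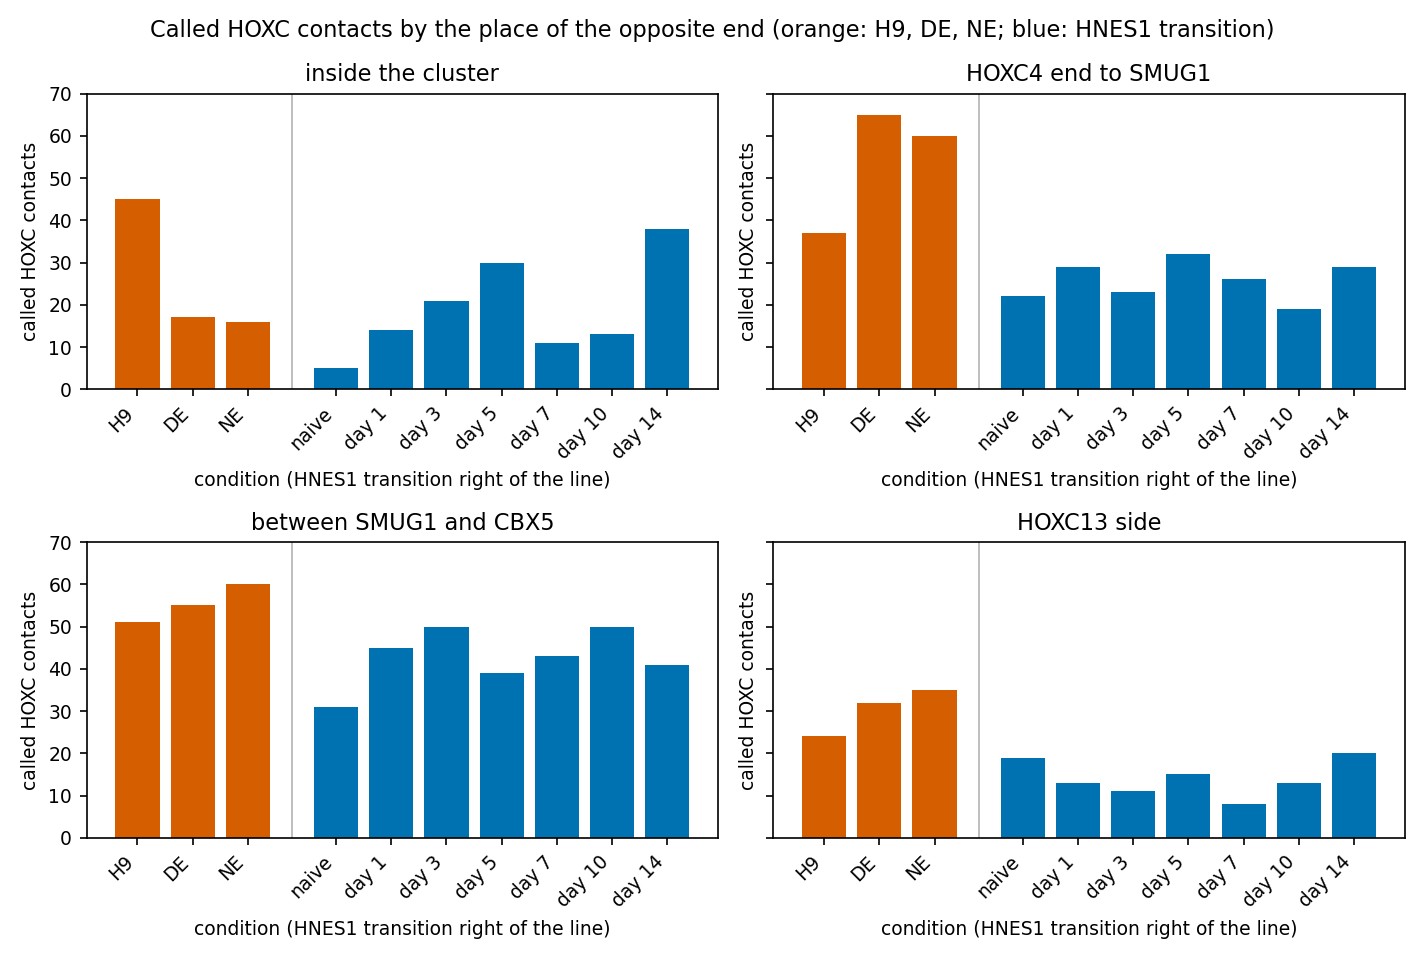
Called HOXC contacts in each condition by the place of the opposite end, with 1 panel per place on the same vertical scale; 5 places were defined and CBX5 and beyond, with at most 12 calls, is not drawn. Inside the cluster, H9 (45) and day 14 (38) stand above DE (17), NE (16) and naive cells (5), while between HOXC4 and SMUG1 DE (65) and NE (60) stand above day 14 (29).

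Between the end of HOXC4 and that of SMUG1 the order was another one. There were 37 calls in H9, 65 in DE and 60 in NE, and 22, 29, 23, 32, 26, 19 and 29 along the transition. The Poisson intervals were 50.2 to 82.8 in DE and 45.8 to 77.2 in NE, against 19.4 to 41.6 at day 14. The ratio of DE to day 14 in calls within chromosomes overall was 1.44 and that of NE 1.59, so the counts here were further apart than those of all contacts. On the HOXC13 side 24 contacts were called in H9, 32 in DE and 35 in NE, and 19, 13, 11, 15, 8, 13 and 20 along the transition.

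The 42.0 kb between SMUG1 and CBX5 were in contact with the cluster in every condition. There were 51 calls in H9, 55 in DE and 60 in NE, and 31, 45, 50, 39, 43, 50 and 41 along the transition. CBX5 and beyond had between 1 and 12 calls per condition, the 1 at day 14 and the 12 at day 5.

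The 2 fragments that took the most calls from member baits lie in this stretch, and neither overlaps a protein-coding gene. The nearer one (54198097 to 54203167), 142 kb from the end of the cluster, lies in the long noncoding RNA gene LOC105369777, and the farther one (54208156 to 54213264), at 152 kb, overlaps no annotated gene. Together they took 213 of the 893 calls made by member baits over all conditions (23.9%), among 116 opposite fragments, and 23 of the 28 member baits listed a contact with them. Their calls numbered 22 in H9, 24 in DE and 26 in NE, and 19, 15, 22, 22, 22, 24 and 17 along the transition. These counts varied less than those inside the cluster, between 15 and 26 over the 10 conditions. The 2 fragments were picked by their calls summed over the same conditions, and the part of this choice was not tested. Their share of the calls made by member baits was less even. It was 28.4% in naive cells, 32.4% at day 10, 18.1% at day 14 and 19.8% in DE.

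The bait at 54028739 to 54029645 made the only HOXC contact called in all 10 conditions, with the farther fragment 182 kb away. It scored 11.7 in H9, 8.41 in DE and 10.6 in NE, and 6.74, 18.8, 5.42, 9.62, 13.0, 8.08 and 11.3 along the transition. Of all contacts within chromosomes 61 were called in every condition, 13 of them on chromosome 12. The same bait and the nearer fragment scored 15.8 in H9, 20.5 in DE and 10.3 in NE, and 9.02, 4.82, 11.5, 10.4, 18.5, 11.1 and 15.0 along the transition, and missed a call at day 1. The HOXC8 bait and the farther fragment, 201 kb apart, scored 13.1 in H9, 5.51 in DE and 9.19 in NE, and 8.76 at day 14 against 2.72 in naive cells, its only condition without a call.

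Of the 11 HOXC contacts called in 8 or more conditions, 9 led to the stretch between SMUG1 and CBX5 and 2 to the stretch between HOXC4 and the end of SMUG1. Of these 2, 1 was made by a SMUG1 bait with the end of HOXC4, described further on, and the other joined the HOXC4 bait at 54049237 to 54052135 to a SMUG1 fragment (54179691 to 54185084) and scored 2.29 in H9, 5.46 in DE and 17.7 in NE, and 14.8 at day 14 against 10.3 in naive cells. The highest HOXC score in the table, 20.7, was that of the bait at 54031091 to 54032098 with the nearer fragment in NE. The strongest HOXC contact of each of the 10 conditions ended in either the nearer or the farther fragment, from baits of HOXC9, HOXC8 or the shared stretch of HOXC4, HOXC5 and HOXC6.

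**Figure D4:**
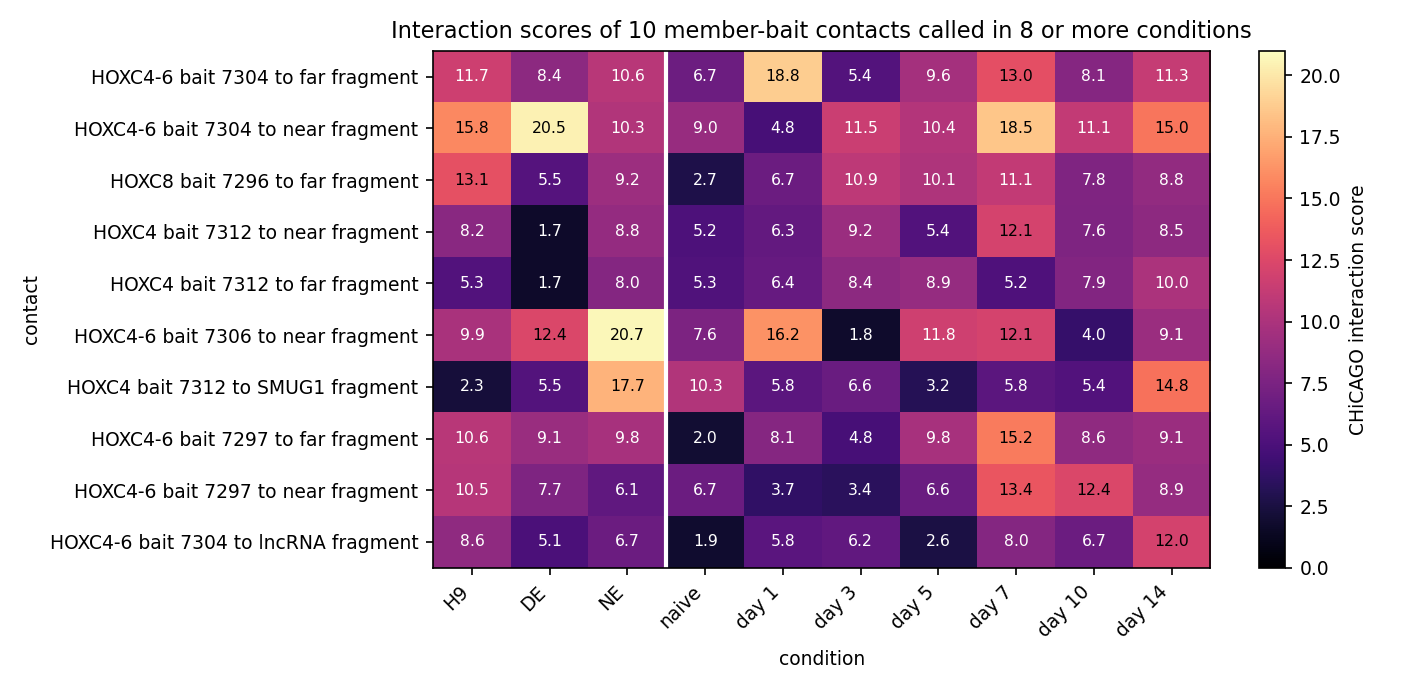
Interaction scores of the 10 contacts of member baits called in 8 or more conditions, 1 row per contact and 1 column per condition; the near and far fragments are the 2 between SMUG1 and CBX5, at 142 and 152 kb from the cluster, and the lncRNA fragment lies at 137 kb, and the number after the word bait is its deposited poised enhancer number and only tells baits apart. The top row is the contact called in all 10 conditions, with scores between 5.42 and 18.8.

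HOXC contacts recurred across conditions more often than contacts in general. Of the 703, 16.9% were called in 3 or more conditions and 7.82% in 5 or more, against 4.62% and 1.08% of all contacts within chromosomes. Those of chromosome 12 without HOXC had 6.50% and 1.81%, and the HOXA, HOXB and HOXD contacts had 14.6%, 5.65% and 9.29% in 3 or more. Between SMUG1 and CBX5 31.5% of HOXC contacts were called in 3 or more conditions, inside the cluster 15.6% and on the HOXC13 side 6.94%. Baits that call more contacts also give more chances to recur, and this was not tested.

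The direction in which a bait looked changed along the cluster. The 3 HOXC13 baits sent 66.7% of their 48 calls, summed over conditions, to the HOXC13 side and 25.0% beyond HOXC4. The HOXC12 bait sent 63.2% of 19 calls to the HOXC13 side. The 5 HOXC11 baits sent 29.3% to the HOXC13 side, 22.1% into the cluster and 48.6% beyond HOXC4. For HOXC10 the share beyond HOXC4 was 71.4%, for HOXC9 87.1%, for HOXC8 80.4%, for HOXC6 77.3% and for HOXC4 74.8%. The baits differ in their distance from each side, and its part in this order was not tested.

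In no single condition did HOXC13 baits have more than 6 calls to the HOXC13 side, so their direction was read over the summed calls only. The member baits with the most listed contacts were that at the far end of HOXC11, with 43, the HOXC4 bait at 54049237 with 42, the bait at 54028739 with 36, the HOXC4 bait at 54053962 with 24 and the bait at 54031091 with 22. The HOXC11 bait had 10 calls in H9, 19 in DE and 7 in NE, and 5, 13, 7, 11, 3, 3 and 5 along the transition. The bait at 54028739 had 14, 9 and 14 in H9, DE and NE, and 7, 7, 6, 10, 7, 6 and 19 along the transition, so its highest count was at day 14.

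**Figure D5:**
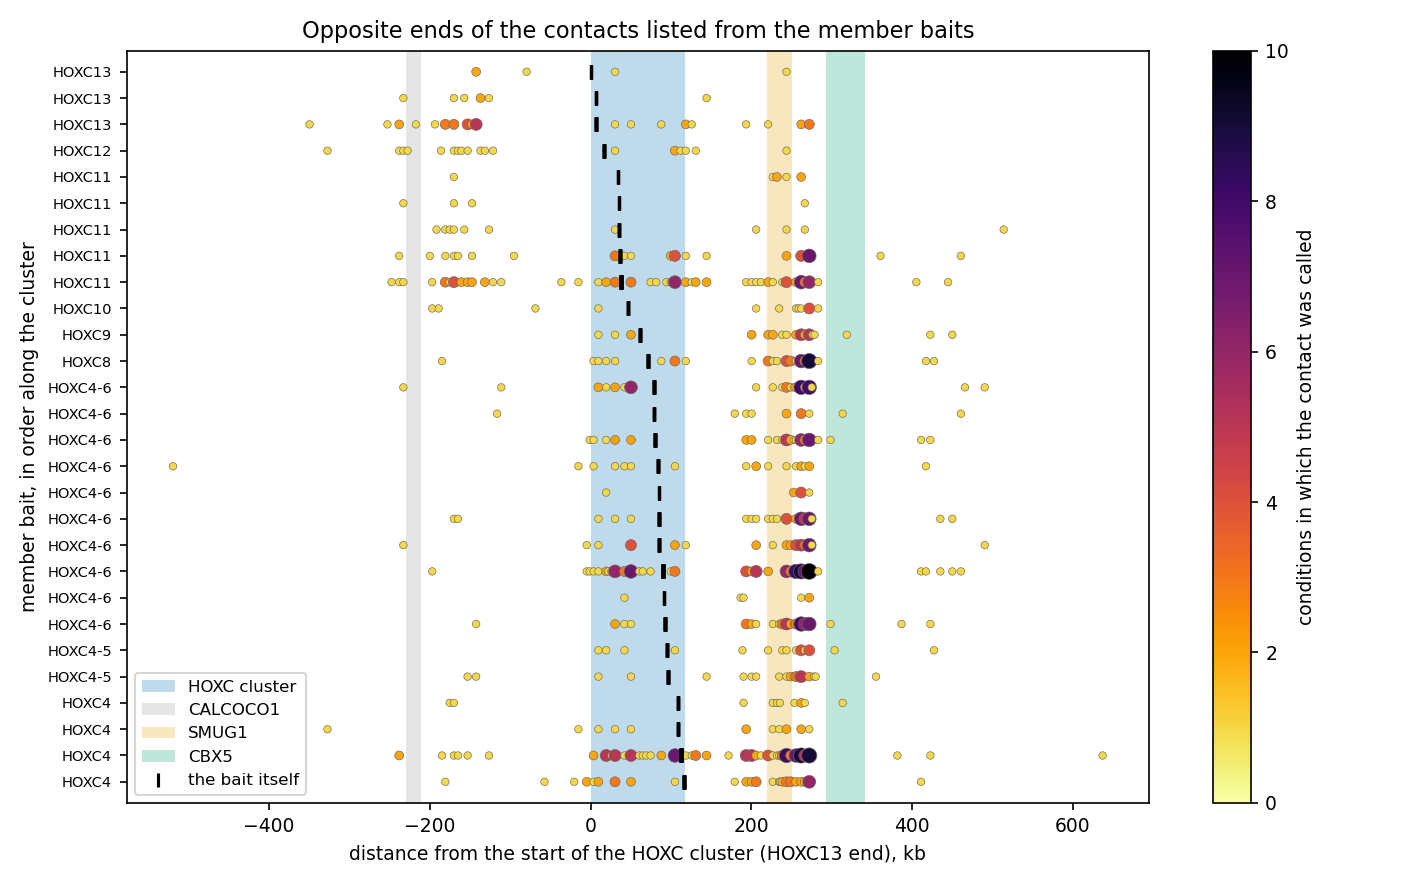
Opposite ends of the 466 contacts listed from the 28 member baits, 1 row per bait from HOXC13 (top) to HOXC4 (bottom); the horizontal axis gives the distance in kb from the HOXC13 end of the cluster, and size and colour give the number of conditions in which a contact was called. The column of large points between SMUG1 and CBX5 marks the 2 fragments that 23 of the 28 baits reached.

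From the other side, 72 baits outside the member genes listed a contact with a HOXC gene as the other end. The bait at 54196966 to 54197821 in LOC105369777 listed 12, with 2 calls in H9, 3 in DE and 3 in NE, and 0, 5, 6, 4, 3, 6 and 0 along the transition. It thus made no called HOXC contact at either end of the transition. The bait at 54172639 to 54173994 in SMUG1 listed 11 and had 25 calls over all conditions. Its contact with the fragment that covers the end of HOXC4 and the FLJ12825 promoter printed above scored 3.87 in H9, 7.10 in DE and 9.97 in NE, and 8.62, 3.88, 11.6, 7.20, 7.78, 5.96 and 6.89 along the transition. It was called in 8 conditions, the most for a HOXC gene reached from a bait outside the members.

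Among HOXC fragments reached as other ends, that of HOXC10 (53986411 to 53991439) took 19.1% of the 512 calls over all conditions and the HOXC4 fragment at 54041085 to 54046082 took 18.8%. The HOXC10 fragment had 18 calls in H9, 12 in DE and 11 in NE, and 6 at day 14 against 7 in naive cells. The HOXC4 fragment had 17, 18 and 10 in H9, DE and NE, and 0, 7, 9, 12, 7, 6 and 10 along the transition, so it was not called from any bait in naive cells. The hairpin of MIR196A2 was reached in 3 listed contacts, none of which also involved a HOXC gene, and the bait that begins in MIR615 had 5 calls in H9, 1 in DE and 3 in NE, and 0 at day 14 against 1 in naive cells. HOTAIR overlaps HOXC11, and 29 of its 59 bait-side contacts were also HOXC contacts.

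Other protein-coding genes were the partner in a minority of contacts. Of the 581 listed contacts whose opposite end lay outside the cluster 154 (26.5%) had a protein-coding gene there, and 13 such genes were found. The share over all contacts within chromosomes was not computed, so this one cannot be called low or high. SMUG1 was at the opposite end of 91 listed contacts, with 11 calls in H9, 32 in DE and 38 in NE, and 12, 14, 15, 17, 11, 8 and 17 along the transition. The next were ZNF385A, a zinc finger gene, with 19 listed contacts, GPR84, a receptor for medium-chain fatty acids, with 12 and CALCOCO1 with 11. CBX5 and COPZ1, which encodes a coatomer subunit, had 6 each, the integrin gene ITGA5 had 4, ATF7 and its readthrough ATF7-NPFF had 3 each, and NFE2, an erythroid transcription factor gene, had 2. None of these 9 had more than 5 calls in a condition.

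The comparison of day 14 with naive cells asked what differed at the cluster between the primed and the naive state. At day 14, 107 HOXC contacts were called that were not called in naive cells (15.2% of 703, against 10.6% of all contacts), and 59 called in naive cells were not called at day 14 (8.39%, against 9.34%). Both states shared 22. Inside the cluster 35 were gained and 2 lost, and on the HOXC13 side 18 were gained and 17 lost. Of the 9 genes, 8 had more called contacts at day 14 and 1 fewer, with a median difference of 5.00, but HOXC4, HOXC5 and HOXC6 share contacts. Of 14272 protein-coding genes linked to any contact 29.0% had more, 3642 had fewer and 6486 the same, and the median difference was 0. Their mean in naive cells was 1.43 calls, against 16.1 for the HOXC genes, so these shares differ in count size too. The same limits hold for the counts of genes in the next comparisons.

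The comparison of H9 with day 14 asked how the primed state reached by HNES1 relates to an established primed line. In H9, 128 HOXC contacts were gained (18.2%, against 12.1% of all contacts) and 96 lost (13.7%, against 10.3%), and 33 were shared. Inside the cluster 35 were gained and 28 lost. More contacts were called in H9 for 6 genes and fewer for 3, with a median difference of 2.00, and 31.4% of all linked genes had more. The other-end side held 88 calls in H9 against 57 at day 14, and the bait side 105 against 94. The size of the difference depended on the background. Chromosome 12 made up 6.63% of all calls within chromosomes in H9 and 8.40% at day 14. HOXC contacts were 10.2% of chromosome 12 calls in H9 and 7.49% at day 14, but 0.677% and 0.629% of all calls within chromosomes.

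The comparisons of DE and NE with day 14 asked what differed after entry into endoderm and neuroectoderm. They share their day 14 reference. In DE, 141 HOXC contacts were gained (20.1%, against 15.1% of all contacts) and 96 lost (13.7%, against 10.1%). In NE, 133 were gained (18.9%, against 16.7%) and 86 lost (12.2%, against 9.98%). Inside the cluster DE had 10 gained and 31 lost and NE 7 gained and 29 lost, and between HOXC4 and the end of SMUG1 DE had 54 gained and 18 lost and NE 48 gained and 17 lost. In DE 6 genes had more called contacts and 3 fewer, with a median difference of 4.00, and in NE 8 had more and 1 fewer, with a median difference of 5.00. Over all linked genes 37.2% had more in DE and 41.6% in NE. The excess of all HOXC calls over day 14 depended on the scaling, being 11 in DE and 0 in NE on quantile-normalised scores against 45 and 47 on the deposited scores, and with calls at 10 or above DE had 4 against 10 at day 14. The deficit inside the cluster was 21 in DE and 22 in NE on the deposited scores and 28 and 25 on quantile-normalised ones.

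The other HOX clusters had fewer calls in DE and NE relative to day 14 than HOXC did. HOXA contacts numbered 134 in H9, 71 in DE and 58 in NE, against 115 at day 14, HOXB contacts 128, 84 and 71 against 66, and HOXD contacts 57, 52 and 49 against 49. With both ends between the outer genes of the cluster, HOXA had 9 calls in DE and 6 in NE against 47 at day 14, HOXB 16 and 6 against 35, and HOXD 0 and 0 against 21. Counted by the same rule HOXC had 16 and 16 against 38. In naive cells these counts were 3 for HOXA, 1 for HOXB, 0 for HOXD and 5 for HOXC. The higher count at day 14 than in naive cells was thus shared by all 4 clusters and not particular to HOXC. Outside the clusters HOXC had 158 calls in DE and 160 in NE against 91 at day 14, HOXA 62 and 52 against 68, HOXB 68 and 65 against 31 and HOXD 52 and 49 against 28. Within the cluster all 4 thus had fewer calls in both lineages than at day 14, and outside it HOXC, HOXB and HOXD had more while HOXA had fewer.

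Among genes known to act with or upstream of HOX genes, 3 of the 8 linked HOX cofactors of the PBX, MEIS and PKNOX families had more contacts at day 14 than in naive cells (37.5%) and 1 fewer, and 2 of 9 HOX regulators had more (22.2%) and 5 fewer. Of the 20 protein-coding genes within 500 kb of the cluster 7 had more (35.0%) and 5 fewer. These shares lay near the 29.0% of all linked genes. Relative to day 14, 2 of the 8 cofactors had more in H9, 4 in DE and 4 in NE, and 5, 6 and 5 of the 9 regulators had more. Of the 20 genes within 500 kb 10 had more in H9, 10 in DE and 14 in NE, and 6, 6 and 4 fewer. Of all linked genes 31.4% had more in H9, 37.2% in DE and 41.6% in NE. PKNOX2, a cofactor gene on chromosome 11, had 52 calls in H9, 62 in DE and 64 in NE, and 28 at day 14 against 18 in naive cells. It did not stand for the cofactors as a group. For MEIS1 the 23 day 14 calls exceeded those of H9 (6), DE (15) and NE (12). MEIS2 kept close to its day 14 count of 48 in H9 (48) and DE (50), while NE had 39.

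Member baits called more contacts than other baits. Summed over the 10 conditions the 28 member baits made 31.9 calls within chromosomes each, with a median of 23.5. The 1539 other baits of chromosome 12 made 10.9 (median 7.00) and the 27336 baits of other chromosomes 7.57 (median 5.00). HOXA baits made 20.6, HOXB baits 13.4 and HOXD baits 12.4. Contacts of member baits with other chromosomes numbered 53 in H9, 170 in DE and 160 in NE, against 33 at day 14. The 1539 other baits of chromosome 12 had 2264, 11274 and 9807 against 2254, so the excess of DE and NE between chromosomes was shared by these baits.

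The genes whose counts of called contacts over the 10 conditions were most like the HOXC count, among 3326 with at least 20 calls and no shared contact, were MINK1 (Pearson's r 0.974), PRKAG2 (0.970), PEBP4 (0.948), EPHB3 (0.944) and ACKR3 (0.938). MINK1 had 4, 4 and 5 calls in H9, DE and NE and 3 at day 14 against 1 in naive cells, and PEBP4 had 47, 66 and 75, and 32 against 19. All calls within chromosomes correlated with the HOXC count at 0.897, and the part of the number of calls per condition in the likeness was not tested. These are descriptions over 10 pooled conditions.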

How the data were processed

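Contacts were measured in 20 capture libraries, 2 for each of 10 conditions, and the labels assign both libraries of a condition to 1 column of the deposited table. The unit is the CHiCAGO interaction score the authors computed per pair of fragments, deposited as 1 pooled score per condition. The deposited distance column, in bp, served contact lengths, and 0 value columns were unmatched. GRCh38 was named in the submitters' processing notes, and aligner, caller version and binning are not given in the sources used here. The depth of the reads is unknown. Every listed contact reached a score of 5.00 in at least 1 condition, and the scores were not normalised again.

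Gene bodies, widened by 1 kb, came from RefSeq (GRCh38.p14), which gave no strand. RefSeq promoter sequence was matched for 2 of the 9 members, which share 1 window. A call was a score of 5 or more. Differences between conditions are counts without a test. Intervals (exact Poisson, Wilson, 95%) cover counting error only, and neighbouring contacts are not independent. Counting was tested on simulated contacts and returned the planted numbers. The named items were all members, the 10 contacts called in most conditions (ties by the highest score), the strongest contact per condition, the 10 partner genes and 5 baits with most listed contacts, and the 5 genes most alike. The members and lists were chosen with earlier results of these data known. The alternatives tried were calls at 3 and at 10, scores quantile-normalised between conditions, equal numbers of calls, other gene limits, pairs counted once, no bait-to-bait contacts and merged other ends. Python 3.11.15, pandas 2.3.3, numpy 2.4.6, scipy 1.17.1 and matplotlib 3.10.9 were used.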

Additional observations from a re-analysis of the deposited data

Results flagged for a closer look

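HOXC9 and HOXC12 moved in opposite directions in the lineages relative to day 14, where each lineage is 1 pooled column. HOXC9 had 2 called contacts in DE and 7 in NE against 4 at day 14, differences of -2 and 3. HOXC12 had 3 in DE and 9 in NE against 5 at day 14, differences of -2 and 4. The difference between the lineages was not tested, and the counts are small.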

How the results depend on the processing

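The 16 differences between conditions were recomputed under 10 alternatives each, and the values inside the cluster were added after seeing the data. Of the 160 values 104 stayed within 1.5 times the reported one, 46 moved further and 10 changed sign, and the cause was not tested. A score of 10 or more left few calls, so that the difference of day 14 and naive cells was 6, of H9 and day 14 4, of DE and day 14 -6 and of NE and day 14 1. Inside the cluster it was then 0, 2, 0 and 1 in the same order, and for DE on the bait side -6. At a score of 3 the differences were 76 for day 14 and naive cells and 18 for H9 and day 14, with -1 for H9 inside the cluster and -8 for DE on the other-end side. Quantile normalisation gave 11 for DE, 0 for NE and 3 for H9 inside the cluster, and -6 for DE and -10 for NE on the other-end side. Equal numbers of calls gave 7 for DE and 3 for NE, and -8 for both on the other-end side. With gene ends only the differences were 23 for day 14, 20 for H9 and 22 for DE, and inside the cluster 21 for day 14 and -14 for NE. Merged other ends gave 25 for day 14, 25 for DE and 28 for NE, and widening by 5 kb gave -3 for NE on the other-end side. Inside the cluster day 14 had more calls than naive cells, and more than DE and NE, under each of these except the score of 10. No paired analysis was possible because both libraries of a condition share 1 score column, and for the same reason no library could be left out. Read depth is unknown, so contacts that were not called may have gone undetected.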
